A study of Rattus norvegicus with 4 samples.

Results

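The progress of fracture repair under diabetes was followed by setting the diabetic callus of day 11 against the diabetic callus of day 5, each measured on 1 array. Genes were taken into the comparison where the authors' deposited table gave a value on both diabetic arrays, which held for 15215 of the 20174 genes probed. The arrays are 2 of the 4 in the series. The diabetic groups (DM Day 11 and DM Day 5) were male Sprague–Dawley rats, 12 weeks old, made diabetic with 1 intravenous dose of 40 mg/kg streptozotocin and labelled with blood glucose over 300 mg/dl. The control groups (Ctr Day 11 and Ctr Day 5) received sodium chloride and are labelled with normal blood glucose. Every animal, diabetic or control, carried an intramedullary wire in the right femur and a closed transverse fracture of its shaft. Days were counted from the fracture. Callus from 5 animals was pooled for each array, so differences between animals were averaged before measurement and no group has a replicate. Every value below is therefore given without a replicate error or a p-value, and a difference between 2 arrays is a difference between 2 pools.

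Callus is the tissue that bridges a broken bone. It starts as inflamed granulation tissue, turns in part into cartilage, and is then mineralised and replaced by bone as vessels grow in. Streptozotocin destroys the insulin-producing beta cells of the pancreas, and diabetic animals are widely used as a model of impaired fracture repair. In a whole-tissue sample, fewer cells of a type and less RNA per cell cannot be told apart.

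The array names its probes by Ensembl gene identifiers only, with 1 spot per gene. None of them could be paired with a gene symbol (0 of 20174), so no gene below is named by function. The callus label could not be checked against cartilage, bone or inflammatory markers, and no pathway or cell type is reported. Genes are described by their signal on the 4 arrays, and the identifiers printed are those of the first 2 genes in each direction. Values are the deposited intensities, a linear scale on which the median listed gene of every array is 25 and the dimmest listed gene is 0.88 on DM Day 11 and 0.96 on DM Day 5.

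Most genes had similar signals on the 2 diabetic arrays. Of the 15215 genes, 79.1% were less than 1.5-fold apart, and 90% of the log2 ratios (DM Day 11 over DM Day 5) lay between -0.85 and 0.86. At least 2-fold higher on DM Day 11 were 572 genes (3.76%), and at least 2-fold lower were 505 genes (3.32%). The larger differences were mostly on the higher side. At least 4-fold, 126 genes (0.828%) were higher on DM Day 11 and 24 (0.158%) were lower. At least 8-fold, 48 genes (0.315%) were higher and 3 (0.0197%) lower, and at least 16-fold, 24 (0.158%) were higher and 1 (0.00657%) lower. The 2-fold limit cuts through a continuous spread, with 76 higher genes between 2-fold and 2.1-fold and 97 between 1.9-fold and 2-fold. On the lower side there were 108 genes in each of those bands.

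The near balance of 572 higher and 505 lower genes depends on how the arrays are set against each other. The median log2 ratio of all 15215 genes was -0.11, and 60.6% of the genes had a ratio below 0. Relative to that median there were 707 genes at least 2-fold higher and 348 lower, so that 67.0% of the calls were higher, against 53.1% on the deposited scale. The normexp correction models each spot as signal plus background and damps the ratios of dim spots; it was run on the mean of the blank spots (the blank level) and on the local background around each spot, both with quantile normalization. With normexp on the blank level the higher share was 76.7%, and with normexp on the local background 43.6%. The excess of higher genes at 4-fold was present on the deposited scale, after centring and with normexp on the blank level (43 against 3), but normexp on the local background gave 53 higher and 91 lower.

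The direction and size of the differences varied with signal. The genes were divided by mean value into 4 groups of equal size. In the dimmest group, with mean values of 0.94 to 6.40, 11.5% differed by 2-fold or more (223 higher and 216 lower). In the brightest group, with mean values of 127 to 33452, the share was 4.84% (99 higher and 85 lower). The interquartile range of the log2 ratio was 0.76 in the dimmest group and 0.40 in the brightest. The 4-fold higher genes were spread over the whole range, with 25, 42, 29 and 30 genes from the dimmest to the brightest group, while the 4-fold lower genes numbered 9, 5, 4 and 6. The median log2 ratio moved from -0.00 in the dimmest group to -0.19 in the brightest. On the deposited scale the brightest group had 30 genes 4-fold higher and 6 lower, with a median below 0. How these counts relate to the drift of the median was not tested.

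**Figure D1:**
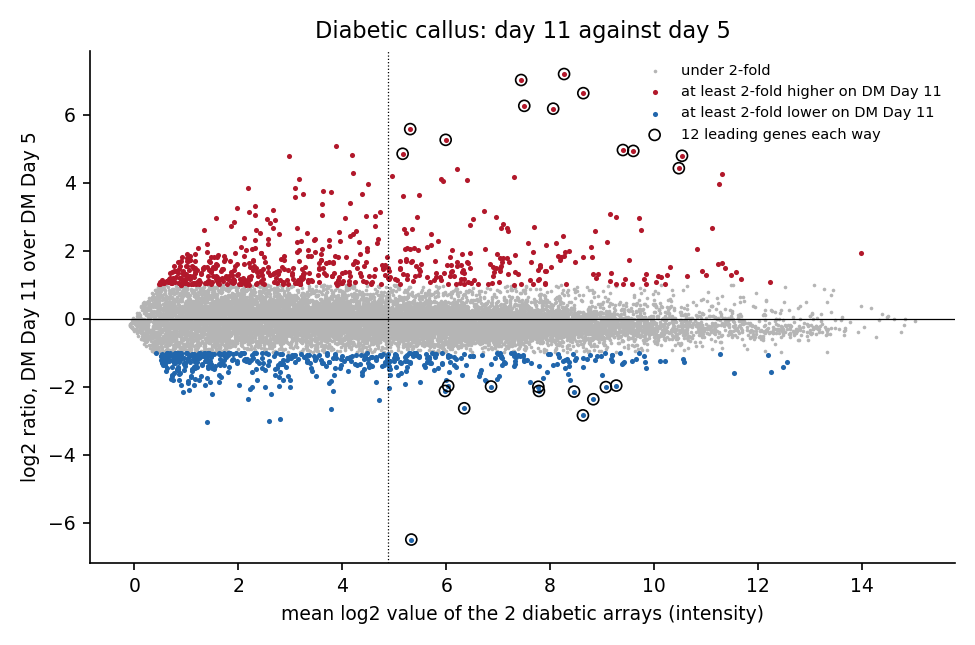
Each point is 1 of 15215 genes, with the mean log2 value of both diabetic arrays on the x axis and the log2 ratio of DM Day 11 over DM Day 5 on the y axis. Red genes (572) were at least 2-fold higher on DM Day 11 and blue genes (505) lower, circles mark the 12 leading genes each way, and the dotted line is the median signal; the points reach 7.20 upward, whereas downward 1 gene lies at -6.50 and only 3 pass 8-fold.

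Among the genes at or above the median mean signal, those at least 2-fold apart in the same direction also with normexp on the blank level numbered 145 higher and 52 lower. The leading gene on the higher side was ENSRNOG00000012821. Its value was 3730 on DM Day 11, against 25.5 on DM Day 5, a 147-fold difference. In control callus it was 33.2 on day 11 and 3.96 on day 5. It ranked 203 by signal on DM Day 11, among the 15963 genes listed there. On DM Day 5 and Ctr Day 11 it lay near the median listed gene, and on Ctr Day 5 it was faint. Its log2 ratio was 7.20 in diabetic and 3.07 in control callus.

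ENSRNOG00000013228, the second, had a value of 1979 on DM Day 11 and of 15.3 on DM Day 5. Its control values were 8.93 on day 11 and 1.17 on day 5, the last close to the dimmest listed value of that array (0.81). Both genes were thus higher on day 11 in either condition, with the diabetic array of day 11 far above the rest. How far depends on the background used, since normexp on the local background gave log2 ratios of 4.36 and 2.60 in place of 7.20 and 7.02.

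The 12 leading higher genes had log2 ratios of 4.42 to 7.20. On DM Day 11 their values ran from 192 to 7814 with a median of 2998, and on DM Day 5 from 5.73 to 307 with a median of 28.4. In control callus their medians were 14.5 on day 11 and 5.495 on day 5. For 11 of the 12, DM Day 11 stood at least 2-fold above each of the 3 other arrays. In control callus 5 of the 12 were at least 2-fold higher on day 11 and none was 2-fold lower. Of all genes listed on both control arrays, 3.17% were higher and 5.04% lower, so with 12 genes nothing is read from the absence of lower ones. With normexp on the local background, 10 of the 12 were still at least 2-fold higher and 1 had the opposite sign, at -0.30.

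Most of these genes were already higher on DM Day 5 than on Ctr Day 5, while the eighth was far lower. The log2 ratio of DM Day 5 over Ctr Day 5 was 2.68 for the first gene and 3.71 for the second. The twelfth gene had values of 6601 on DM Day 11 and 307 on DM Day 5, against 7.58 on Ctr Day 11 and 4.90 on Ctr Day 5. The ninth had 4288 and 140 on the diabetic arrays of days 11 and 5, against 22.2 and 5.83 on the control arrays. Both had a higher value on DM Day 5 than on either control array, and their highest value on DM Day 11.

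The exception among the 12 was the eighth gene, with 3768 on DM Day 11 and 121 on DM Day 5. Its control values were 3875 on day 11 and 3702 on day 5. Here 3 arrays lay close together and DM Day 5 alone was low. The gene had 1 unflagged spot, and whether that spot failed was not tested. The repeat spots of a control probe are given beside it and do not decide this. The second positive control probe, spotted 24 times, had 1 spot at 127 on DM Day 11, where 22 of its spots lay between 5828 and 7547. On DM Day 5 the same spot was at 8530, giving a log2 ratio of -6.07. That spot was low on DM Day 11, whereas the eighth gene was low on DM Day 5. One further spot was low on all 4 arrays, and the other 22 had log2 ratios of -0.63 to -0.22. None of the 24 spots carried a bad flag on any array.

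On the lower side ENSRNOG00000019120 stood apart from all others. Its value was 4.22 on DM Day 11, against 382 on DM Day 5, a 90.5-fold difference. In control callus it was 10.3 on day 11 and 154 on day 5. Both conditions thus had a bright signal on day 5 and a faint one on day 11, with log2 ratios of -6.50 in diabetic and -3.91 in control callus. ENSRNOG00000015076 followed at 148 on DM Day 11 and 1062 on DM Day 5, with 62.9 on Ctr Day 11 and 340 on Ctr Day 5. Its log2 ratios were -2.85 in diabetic and -2.43 in control callus, and its diabetic value was above the control value on each day.

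The 12 leading lower genes had log2 ratios of -1.97 to -6.50, and 11 of them lay between -1.97 and -2.85. Their median values were 107 on DM Day 11 and 449 on DM Day 5, with 199 on Ctr Day 11 and 282 on Ctr Day 5. DM Day 11 was at least 2-fold below each of the other arrays for 7 of them and DM Day 5 at least 2-fold above each for 3. In control callus 5 of the 12 were at least 2-fold lower on day 11 and 1 was at least 2-fold higher, beside 5.04% and 3.17% of all genes. With normexp on the local background, 7 of the 12 were at least 2-fold lower and 1 had the opposite sign.

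**Figure D2:**
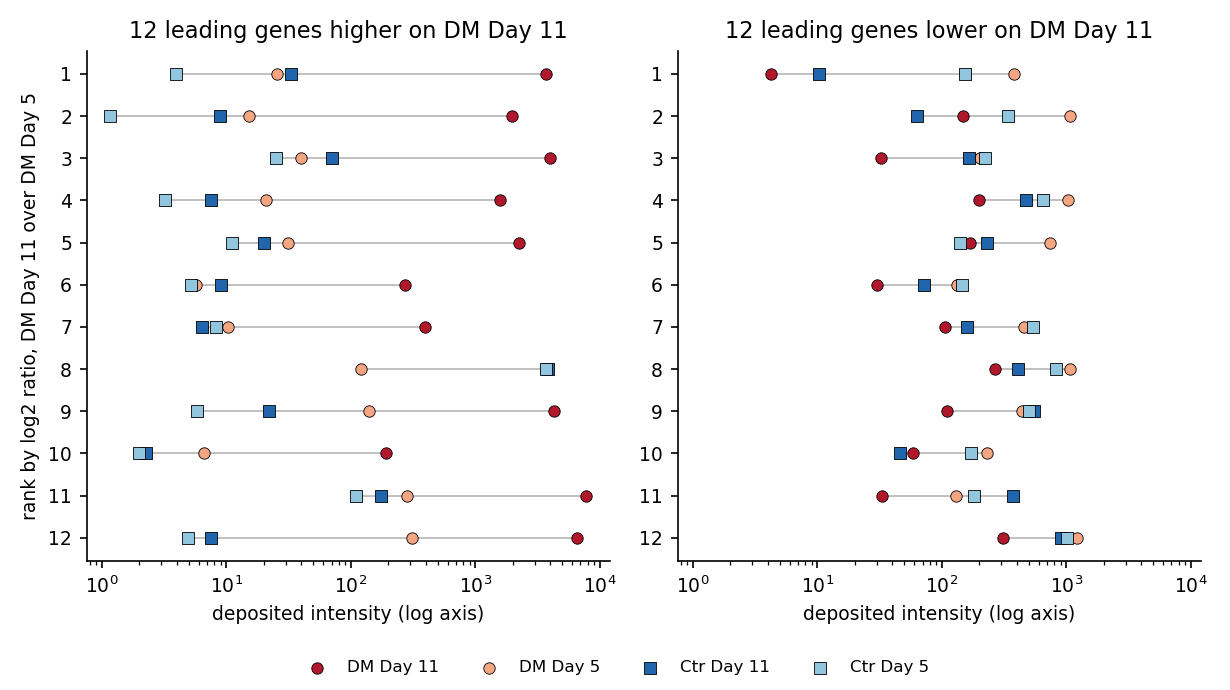
Each row is 1 leading gene, ranked by log2 ratio from the top, with its deposited intensity on each of the 4 arrays on a log axis (higher genes left, lower genes right). In the left panel the DM Day 11 point stands alone on the right for 11 of 12 genes, and in the eighth row DM Day 5 stands alone on the left; in the right panel the 4 arrays lie closer together except in the first row.

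The brightest gene on the higher side, picked after its values were seen, was the second brightest of all genes on DM Day 11. Its value was 31737 on DM Day 11 and 8353 on DM Day 5, against 522 on Ctr Day 11 and 139 on Ctr Day 5. The log2 day ratio was nearly equal in both conditions (1.93 in diabetic, 1.904 in control callus), at levels far apart. The 572 higher genes together gave 5.67% of all listed signal on DM Day 11 and 1.28% on DM Day 5, of which that single gene gave 0.842% and 0.204%. The 505 lower genes gave 1.12% of the signal on DM Day 11 and 2.60% on DM Day 5.

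Which of the 4 arrays stood apart was counted over the 14683 genes listed on all of them. DM Day 11 was at least 2-fold above each of the other arrays for 238 genes (1.62%) and at least 2-fold below each for 137 (0.933%). DM Day 5 was at least 2-fold above the rest for 52 genes (0.354%) and below for 66 (0.449%). In control callus day 11 also stood apart for more genes (259 or 1.76% above and 334 or 2.27% below) than day 5 (77 or 0.524% above and 48 or 0.327% below). The larger numbers of day 11 were thus common to both conditions, and the difference between the arrays has no replicate to test it against.

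**Figure D3:**
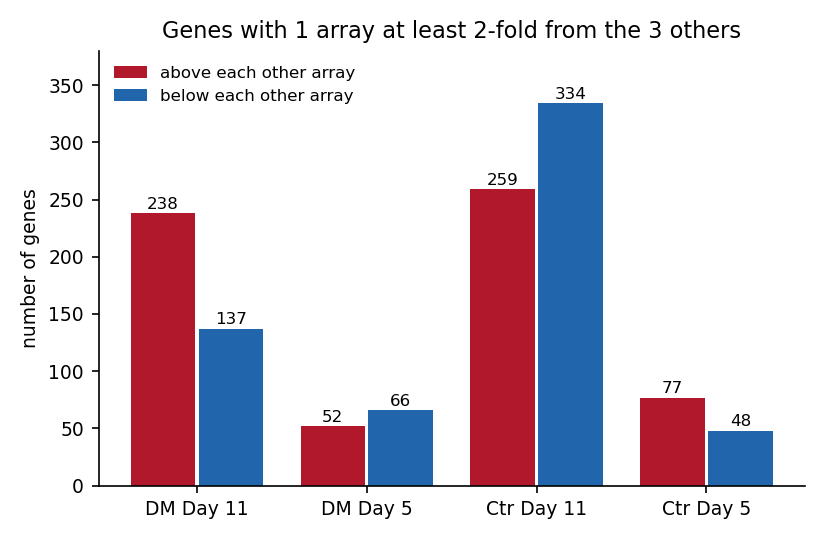
Bars give the number of the 14683 genes listed on all arrays for which 1 array lay at least 2-fold above (red) or below (blue) each of the other arrays. The day 11 arrays have 238 and 137 genes in diabetic and 259 and 334 in control callus, and the day 5 arrays between 48 and 77.

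Of the 126 genes at least 4-fold higher on DM Day 11, 107 were listed on all arrays, and for 91 of these DM Day 11 was at least 2-fold above each of the rest. Their median value was 91.3 on DM Day 11 and 12.6 on DM Day 5, beside 9.46 on Ctr Day 11 and 8.10 on Ctr Day 5. For 64 of the 107, DM Day 5 was above both control arrays, for 25 of them at least 2-fold. The wider set went the other way, since among the 510 genes at least 2-fold higher DM Day 5 was above both control arrays for 174 and below both for 248 (at least 2-fold for 47 and 66). For 12 of the 107, DM Day 5 was at least 2-fold below all other arrays, as in the eighth leading gene. The 24 genes at least 4-fold lower had medians of 4.86 on DM Day 11 and 32.2 on DM Day 5, with 10.9 on Ctr Day 11 and 24.8 on Ctr Day 5. DM Day 5 was above both control arrays for 15 of these 24. All these sets were picked on the diabetic values, with DM Day 5 low in the higher sets and high in the lower set. Where the diabetic arrays lay against control thus follows in part from the choice. The matching share over all genes was not counted, so nothing is read from these counts.

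The control arrays share no RNA with the diabetic arrays and give the same day difference in rats without diabetes. Of 15336 genes listed on both control arrays, 486 (3.17%) were at least 2-fold higher on day 11 and 773 (5.04%) lower, together 8.21%. At least 4-fold, 89 (0.58%) were higher and 107 (0.698%) lower, and at least 16-fold, 14 (0.0913%) were higher and 4 (0.0261%) lower. On the deposited scale, the excess of 4-fold higher genes over lower ones in diabetic callus had no counterpart in control callus at 4-fold. With normexp on the local background the diabetic counts were 53 higher and 91 lower, and control 4-fold counts are not given at that setting. With 1 array per group, the difference was not tested. Over the 14683 genes listed on all arrays, 976 passed 2-fold between the days in diabetic and 1135 in control callus. In the same direction in both were 178 genes, 57 higher and 121 lower on day 11, which is 18.2% of the diabetic and 15.7% of the control list. In opposite directions were 64 genes, of which 49 were higher on day 11 in diabetic and lower in control callus, and 15 the reverse. Across genes, which are not independent replicates, the log2 ratios of both conditions correlated weakly (Pearson r 0.20, Spearman rho 0.20). For the 7599 of them at or above the median signal, r was 0.23 and rho 0.25. With normexp on the local background r was -0.055.

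**Figure D4:**
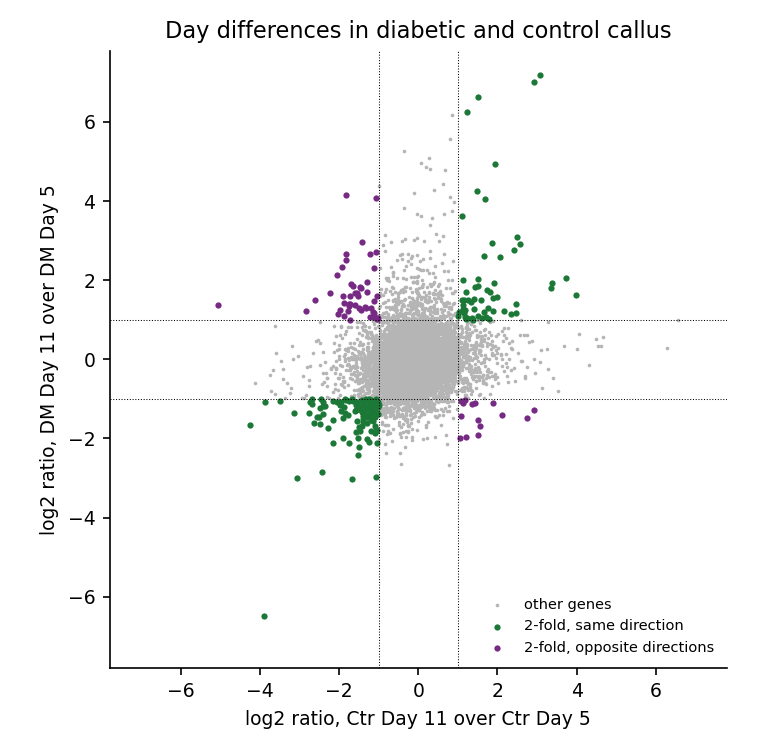
Each point is 1 of 14683 genes, with the log2 ratio of day 11 over day 5 in diabetic callus on the y axis and in control callus on the x axis, and dotted lines at 2-fold. Green genes (178) passed 2-fold in the same direction in both conditions and purple genes (64) in opposite directions; the gray genes beyond a dotted line passed 2-fold in 1 condition alone.

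The genes at least 2-fold higher on DM Day 11 had a median log2 ratio of 1.42 in diabetic and of -0.01 in control callus over the 510 with control values, where all genes had medians of -0.11 and -0.15. The genes lower on DM Day 11 had medians of -1.23 in diabetic and -0.47 in control callus (466 genes). The higher genes had median values of 26.1 on DM Day 11 and 7.62 on DM Day 5, with 9.70 on Ctr Day 11 and 8.16 on Ctr Day 5. Since these genes were picked on the diabetic arrays, smaller differences on the control arrays follow in part from the choice.

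The reverse reading, with genes picked on the control arrays alone, was also made. The genes at least 2-fold higher on Ctr Day 11 had, over the 420 listed on all arrays, a median log2 ratio of 0.15 in diabetic and 1.42 in control callus. Their median value was 13.1 on DM Day 11 and 10.6 on DM Day 5, against 45.1 on Ctr Day 11 and 13.95 on Ctr Day 5. In diabetic callus 57 of the 420 were at least 2-fold higher on day 11, 15 were lower and 261 were less than 1.5-fold apart. Over all genes listed on both diabetic arrays these shares were 3.76%, 3.32% and 79.1%. The genes at least 2-fold lower on Ctr Day 11 (715 on all arrays) had a median log2 ratio of -0.33 in diabetic and -1.30 in control callus, and 121 of them passed 2-fold in that direction in diabetic callus as well. Here too the smaller differences in the condition not used for picking follow in part from the choice, so nothing is read from their size.

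**Figure D5:**
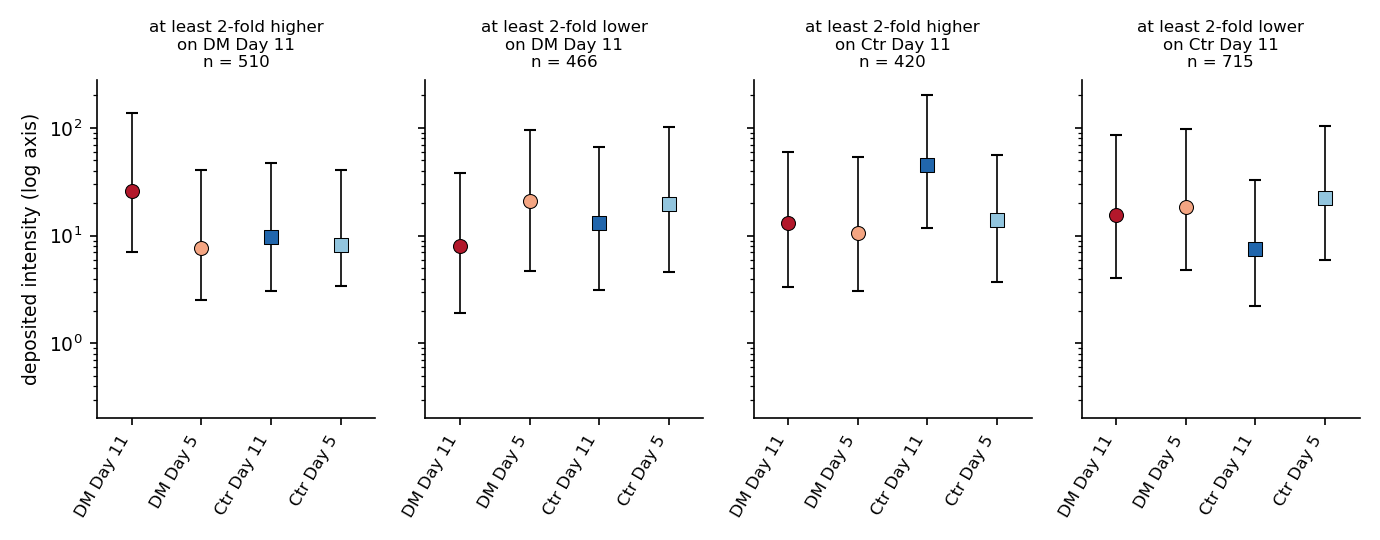
Points are median deposited intensities on a log axis and bars span the quartiles over genes, for genes at least 2-fold higher or lower on day 11 in diabetic callus (left pair of panels) and in control callus (right pair), over genes listed on all arrays. In each panel the array of day 11 in the condition used to pick the genes stands apart from the others, at 26.1 and 8.07 in the left pair and 45.1 and 7.57 in the right pair.

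Distances between whole arrays were taken as the SD over genes of the log2 ratio, for the 14683 genes listed on all arrays. The SD was 0.58 between DM Day 11 and DM Day 5 and 0.59 between Ctr Day 11 and Ctr Day 5. Between diabetic and control callus it was 0.62 on day 5 and 0.89 on day 11. DM Day 11 lay at 0.77 from Ctr Day 5, closer than to Ctr Day 11. The same held for DM Day 5, at 0.62 from Ctr Day 5 and 0.85 from Ctr Day 11. Ctr Day 11 was thus the control array farther from both diabetic arrays. At least 2-fold apart were 976 genes between the diabetic arrays, 1599 between DM Day 11 and Ctr Day 5, and 2215 between DM Day 11 and Ctr Day 11. These distances share arrays and have no error. With normexp on the blank level DM Day 11 lay at 0.44 from Ctr Day 5 and 0.51 from Ctr Day 11. With normexp on the local background these SDs were 0.47 and 0.56. DM Day 5 had the same order, with 0.33 and 0.47 on the blank level and 0.44 and 0.51 on the local background. The order was also the same at the remaining settings. Little is added by that, since centring cannot change an SD and the signal filters use largely the same ratios. The diabetic day distance was the smallest of the 6 pairs on the deposited scale, but with normexp on the local background it was 0.51, above the distances of the control days (0.42), of DM Day 5 to Ctr Day 5 (0.44) and of DM Day 11 to Ctr Day 5 (0.47).

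Other genes had a value on only 1 of the diabetic arrays, 748 on DM Day 11 and 852 on DM Day 5. In each direction 1 of them was missing because its spot was flagged on the other array, and the rest were too dim there. The gene flagged on DM Day 5 had a value of 467 on DM Day 11, and the gene flagged on DM Day 11 had 377 on DM Day 5. The dim genes were mostly faint on the other array too, with medians of 1.24 on DM Day 11 and 1.34 on DM Day 5. The brightest gene listed on DM Day 11 and too dim on DM Day 5 had a value of 15.3, at least 15.9-fold above the dimmest listed value of DM Day 5, and was listed on neither control array. The brightest gene listed on DM Day 5 and too dim on DM Day 11 had a value of 6.68, at least 7.59-fold above the dimmest listed value of DM Day 11. By this bound 144 genes were at least 2-fold higher on DM Day 11 and 165 at least 2-fold lower. The remaining 3359 genes had no value on either diabetic array.

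Spots other than gene probes were compared in the same way. Among spots above the blank-spot limit on both diabetic arrays, 2-fold or more separated 12.5% of the negative controls (7 of 56), 15.04% of the positions without a probe (17 of 113) and 8.40% of the blank spots (10 of 119), beside 7.08% of the genes. These spots lay at the dim end, where 11.5% of the genes in the dimmest group differed by as much. The QC probes, whose nature is not given in the sources used here, exceeded the blank-spot limit on both diabetic arrays at 341 of 521 spots. Of these, 4.99% differed by 2-fold or more (9 higher and 8 lower on DM Day 11). At least 4-fold apart were 3 higher and 1 lower. The first positive control probe, at 24 spots, had a median log2 ratio of -0.31 (DM Day 11 over DM Day 5) with an SD over spots of 0.09, and the second had -0.47. In the control arrays the same medians were -0.06 and -0.04. The bright end of the DM Day 11 array was thus lower for control probes as well as for genes. Over the 24 printing blocks of the array, the median log2 ratio of the genes ran from -0.26 to -0.02. One block held 16 of the 126 genes at least 4-fold higher, where the median block held 5. In that block the blank spots differed from the blank mean of the whole array by 0.03 on DM Day 11 and -0.37 on DM Day 5, in spot units before scaling. Over all blocks the same quantity ran from -0.48 to 0.57 on DM Day 11 and from -0.67 to 0.53 on DM Day 5. Its part in the count was not tested.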

How the data were processed

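Callus RNA pooled from 5 animals per group was amplified, coupled to Cy5 and hybridised to 1 single-colour array per group, per the labels' protocols. The authors deposited, per the file headers, spot medians and local background medians at 635 nm, combined from 3 scanner gains, and a table of processed intensity values. The scanner, its software and the annotation build were not given in the sources used here. Set against the spot medians, each deposited intensity was the spot median minus the mean of the 5808 blank spots, times 1 factor per array (0.60 on DM Day 11 and 0.70 on DM Day 5; largest deviation 0.13 on these and 0.25 on the control arrays). Genes are unlisted where the spot was bad-flagged or at most 2 SD above the blank mean, both taken on blank spots trimmed by 5% per end; 9 genes on Ctr Day 11 and 1 on Ctr Day 5 were listed below that limit. Listed were 15963 genes on DM Day 11 and 16067 on DM Day 5. The number of arrays limits the precision.

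Ratios are log2 of the deposited intensity on day 11 over that on day 5, with no offset. Genes were called by fold alone. Alternatives were 2 normexp corrections with offset 50 and quantile normalization (limma 3.58.1, R 4.3.3), other scalings and filters. Local background and spot signal correlated at r 0.98 to 0.99 on the log scale. The counting code was tested on simulated data. The members, the gene lists and the alternatives were chosen with earlier results of these data known. The counts by array apart, the array distances, the graded levels and the block and control-spot values were added after seeing the data.

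Leading genes had a value on both diabetic arrays, a mean log2 value at or above the median, and at least 2-fold in the same direction with normexp on the blank level; the 12 highest and 12 lowest ratios were taken. The rule also asked for a gene symbol and named members of 36 gene lists. The reference table of 47357 genes holds no Ensembl identifiers, so those parts were dropped, and 2 identifiers are printed per direction.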

Additional observations from a re-analysis of the deposited data

Results flagged for a closer look

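For 64 of the 14683 genes listed on all arrays, the day 11 over day 5 difference went past 2-fold in opposite directions in diabetic and control callus. Beside them, 178 went in the same direction. The 64 became 15 with normexp on the blank level. It became 102 with normexp on the local background, and also without a filter on dim genes. With 1 array per group this was not tested.

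Spots that carry no gene probe gave signal above the blank-spot limit on the diabetic arrays. Among the 96 negative control spots 69.8% exceeded it on DM Day 11 and 66.7% on DM Day 5, and 41.5% and 30.4% did of the 809 positions without a probe. Of the blank spots 7.64% and 6.85% did. The levels were low, with a median of 1.36 on DM Day 11 and 1.32 on DM Day 5 for the negative controls. Genes with values near these are called listed by the same limit. Of the 572 higher genes 132 had a DM Day 5 value under 2 times the dimmest listed value of that array, and of the 505 lower genes 141 had such a value on DM Day 11.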

How the results depend on the processing

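With normexp on the blank level, 174 genes passed 2-fold upward and 53 downward, in place of 572 and 505. Of these, 22 went the same way in control callus (178 on the deposited scale) and 15 the opposite way (64). DM Day 11 stood above each other array for 111 genes (238) and DM Day 5 below each for 10 (66). Normexp on the local background gave 375 higher genes, 77 in the same and 102 in the opposite direction in control callus, and 128 with DM Day 11 above the rest. The genes at or above the median signal alone held 198 higher and 178 lower genes, since fewer genes were counted. The next counts are over a narrower set of 7238 genes that passed the signal filter in both conditions. There 57 went in the same and 24 in the opposite direction, with DM Day 11 above for 64 and DM Day 5 below for 17. Filtered on the diabetic arrays alone (7599 genes), 24 were higher and 50 lower in both conditions, and 35 went in opposite directions. Without a filter on dim genes, 102 went in opposite directions. At 4-fold, the genes at or above the median signal on the diabetic arrays held 59 higher and 10 lower genes. The offset of 50 shrinks the ratios of dim genes by construction; other causes of these shifts were not tested. The log2 ratios of the 4 printed genes kept their direction and stayed past 2-fold at each setting. On the deposited scale, with normexp on the blank level and with the signal filter, that was fixed by how they were picked. Normexp on the local background had no part in the choice. It gave 4.36 and 2.60 for the higher genes and -2.77 and -3.12 for the lower genes. Medians of the gene lists could not be run without symbols. No paired analysis was possible because each group has 1 array. No replicate could be left out for the same reason, and signal near the blank level limits the ratios of dim genes.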
